A study of Homo sapiens with 9 samples.

Results

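The genes described here are the nuclear-encoded genes of oxidative phosphorylation, measured by RNA sequencing in IMR90 cells, normal fibroblasts of human fetal lung that stop dividing after many passages. Members were the genes whose symbol in the authors' table began with NDUFA, NDUFB, NDUFC, NDUFS, NDUFV, UQCR, COX4 to COX8 or ATP5, or was SDHA, SDHB, SDHC or SDHD. Symbols ending in P and a number, the usual form for pseudogenes, were left out. A member also needed at least 50 reads summed over the 9 libraries. This gave 91 members of the 64253 gene identifiers in the count files. They were 37 complex I genes, 4 of complex II, 8 of complex III, 13 of complex IV and 15 of complex V. The other members were 7 complex I assembly factors (NDUFAF1 to NDUFAF7), 3 antisense RNAs, 2 retrocopies (UQCRHL and ATP5L2) and 2 genes that carry the ATP5 name but are not subunits (ATP5S and ATP5SL). NDUFA4, named as a complex I gene and counted there, is known as a subunit of complex IV. NDUFA4L2, its paralog, was also counted in complex I by name.

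The study had 9 libraries in 3 groups of 3, lettered a, b and c. Control cells carried the pLKO.1 lentiviral vector, which the sample labels call empty and the treatment protocol calls a GFP vector. The shRRM2 cells carried a hairpin that silences RRM2, which encodes a subunit of the enzyme supplying DNA building blocks (ribonucleotide reductase). The shRRM2/shp16 cells carried that hairpin and another that targets p16, a CDKN2A product that holds cells out of the cycle. Per the labels, shRRM2 cells were senescent after loss of nucleotides and shRRM2/shp16 cells had bypassed senescence. All groups were grown in 2% oxygen, used at population doubling 30, exposed to a second virus 24 hours after the first, and selected with puromycin at 3 ug/mL for 7 days. No group carried shp16 alone. The labels do not say that libraries came from separate cultures, so p-values cover the spread between these libraries, which may be technical. In bulk RNA, fewer cells with a transcript and less transcript per cell cannot be told apart.

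Oxidative phosphorylation is carried out in the inner mitochondrial membrane. Complex I takes electrons from NADH and complex II takes them from succinate, complex III passes them to cytochrome c, and complex IV hands them to oxygen. Complexes I, III and IV pump protons, and complex V, the ATP synthase, uses the returning protons to make ATP. Most subunits are encoded in the nucleus, translated in the cytosol and imported, and a small core is encoded in mitochondrial DNA. The transcription factors NRF1 and GABPA, the coactivator PGC-1alpha (PPARGC1A) and the nuclear receptor ESRRA are known regulators of the nuclear genes.

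Promoters of members are shown because subunits of several complexes shared a direction of change, and because these regulators were themselves measured. In RefSeq promoters on GRCh38.p14, which span 250 bases before to 50 after a gene's start, 72 members had 88 promoters among 35116. Both strands were searched for 5 motifs, and overlapping matches of different motifs were each counted. The NRF1 motif, named only, was present in 19.3% of member promoters, against 13.4% of promoters of all genes tested and 8.32% of all promoters. The ETS letters CCGGAAG, bound by GABPA, were present in 25%, 15.9% and 10.3%, in the same order. The YY1 letters AANATGGCG were present in 21.6%, 5.52% and 3.19%. The ESRRA letters TCAAGGTCA were present in 1.14% (1 of 88 promoters), 0.187% and 0.353%. The core of the hypoxia response, ACGTG, was present in 25%, 25% and 21.4%. Complex III had the NRF1 motif in 4 of 7 promoters and complex IV in 0 of 13, while the ETS letters were in 3 of 7 and 5 of 13. A match describes letters only. The 150 bases before the RefSeq start of 6 members of complexes II to V are printed 5′ to 3′ on the strand of the gene, with the NRF1 motif in capitals for ATP5O (listed as ATP5PO), UQCRC1 and UQCRFS1 and the ETS letters, on either strand, in capitals for COX8A, SDHB and UQCRQ. Each of the 6 holds the NRF1 motif or the ETS letters, which 19.3% and 25% of member promoters hold, so they do not represent the members. Other transcripts of these genes can start further upstream. They lie at chr21:33915805-33915954 (minus strand), chr3:48609647-48609796 (minus), chr19:29213152-29213301 (minus), chr11:63974470-63974619 (plus), chr1:17054033-17054182 (minus) and chr5:132866492-132866641 (plus).
ATP5O: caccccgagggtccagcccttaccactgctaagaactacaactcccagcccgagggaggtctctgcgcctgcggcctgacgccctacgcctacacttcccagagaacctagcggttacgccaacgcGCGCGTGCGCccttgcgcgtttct
UQCRC1: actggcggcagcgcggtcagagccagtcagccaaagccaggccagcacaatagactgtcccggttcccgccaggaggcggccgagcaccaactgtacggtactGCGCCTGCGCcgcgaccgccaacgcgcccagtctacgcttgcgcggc
UQCRFS1: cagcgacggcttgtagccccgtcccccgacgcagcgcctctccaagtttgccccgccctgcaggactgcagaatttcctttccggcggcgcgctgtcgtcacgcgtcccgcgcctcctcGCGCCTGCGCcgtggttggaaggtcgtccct
COX8A: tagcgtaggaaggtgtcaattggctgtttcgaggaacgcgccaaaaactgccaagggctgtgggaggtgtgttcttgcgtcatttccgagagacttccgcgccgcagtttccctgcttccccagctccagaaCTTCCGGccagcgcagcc
SDHB: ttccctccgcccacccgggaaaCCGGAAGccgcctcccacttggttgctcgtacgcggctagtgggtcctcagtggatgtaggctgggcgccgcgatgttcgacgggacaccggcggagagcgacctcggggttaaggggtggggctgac
UQCRQ: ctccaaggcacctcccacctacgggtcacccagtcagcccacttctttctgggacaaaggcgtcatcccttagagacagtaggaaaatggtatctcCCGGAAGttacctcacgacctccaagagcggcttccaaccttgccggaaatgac

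Gene-assigned reads ranged from 15770895 to 24873291 per library. RRM2 was counted at 485 ± 5.23 CPM (counts scaled to library size with edgeR's TMM factors; mean ± SD, n = 3 in this and all such values) in control, 62.1 ± 1.86 in shRRM2 and 177 ± 3.00 in shRRM2/shp16. CDKN2A was at 6.02 ± 0.113, 6.50 ± 0.464 and 4.28 ± 0.321 CPM. The summed level of 8 fibroblast markers was 2.64e+04 to 2.73e+04 CPM in control, 2.61e+04 to 2.69e+04 in shRRM2 and 2.19e+04 to 2.25e+04 in shRRM2/shp16, where it was lower without overlap. Summed epithelial markers were 23.9 to 25.2 CPM in control, 12 to 13.4 in shRRM2 and 3.29 to 5.21 in shRRM2/shp16, with KRT5 and SFTPC at 0. Summed muscle markers were 7.38 to 8.76, 5.14 to 5.48 and 0.914 to 1.27 CPM in the same order, with MYH7 at 0, and the 4 endothelial and 5 blood cell markers each summed to at most 2.93 CPM, with CD3E at 0. Reads with no annotated gene were 17.6% to 18.9% of those with a single alignment in control, 27.7% to 28.8% in shRRM2 and 23.5% to 24.4% in shRRM2/shp16. RRM2 stood at 12.8% of control in shRRM2 and 36.5% in shRRM2/shp16, so the hairpin groups also differed in the depth of the RRM2 loss. Single markers did not all follow their sums. By the test described below, 1 of 3 tested epithelial markers was higher and 1 lower in shRRM2 than in control. Of 8 fibroblast markers, 3 were higher and 4 lower in shRRM2/shp16 than in control. The RRM2 level, the share of reads with no annotated gene and the fibroblast, epithelial and muscle sums moved with the groups. Their part in the results below was not tested.

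The filter on low counts (edgeR's default) left 87 of the 91 members to test. It removed COX6B2, NDUFA6-AS1 and both retrocopies, with 50 to 63 reads in all. COX6B2 was the member nearest the membership limit, with 50 reads, and NDUFA3 was the nearest below it, with 25. A further 8 symbols were below the limit. COX4I2, COX6A2, COX7B2 and COX8C, isoforms known from particular tissues, had 0 reads, which allows a level of up to 0.018 CPM (3 of the 167095774 gene-assigned reads, for counting error only). NDUFA6, a complex I subunit that has several identifiers in the authors' table, and the readthrough gene NDUFC2-KCTD14 were listed at 0. No level is drawn from those zeros, since reads with several alignments, 40.35% to 44.87% of all, and ambiguous reads went to no gene. The tested members held 127 to 80781 reads each. Per length, by the authors' RPKM (reads scaled to gene length and library size), the members with the highest levels in control were NDUFS5 at 219 ± 9.85, ATP5B at 215 ± 5.35, COX8A at 209 ± 23.4 and COX6B1 at 112 ± 3.92 RPKM. The first 3 of these did not differ beyond their spread. Any RPKM comparison between genes also rests on the gene lengths the authors used, whose error is not in the SD.

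In shRRM2 cells most members that moved were lower than in control. By edgeR's quasi-likelihood test, with a Benjamini-Hochberg adjusted p under 0.05 over all 16561 genes tested, 47 of 87 members fell (54%) and 4 rose (4.6%), while of all genes 31.8% fell and 29.0% rose. The median log2 fold change was -0.13 over the members, a change of -8.92%, and 0.00 over all genes. The 3 shRRM2 libraries lay wholly below the 3 control libraries for 44 members and wholly above for 5, while this held for 32.9% and 30.7% of all genes. In the shRRM2/shp16 cells set against shRRM2, 32 members rose (36.8%) and 20 fell (23%), against 31.9% and 29.1% of all genes, so the share that rose was close to the background. The median was 0.08, against 0.01 over all genes. The groups were separate and higher for 34 members and separate and lower for 21, beside 33.7% and 31.1% of all genes. The shifts were small. The called members differed by a median of 0.26 and 0.20 on the log2 scale in these comparisons, and 38 of 51 and 40 of 52 differed by less than 1.25-fold. Only NDUFA4L2 reached 2-fold, lower by the first comparison and higher by the second. Of all genes, 3.26% fell at least 2-fold in the first and 5.19% rose at least 2-fold in the second.

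Against control, shRRM2/shp16 cells had 40 members lower (46%) and 17 higher (19.5%), beside 32.4% and 30.0% of all genes, with a median of -0.10 and 0.01 over all genes. Of the members, 43 had separate groups with shRRM2/shp16 lower and 16 with it higher, beside 33.8% and 32.4% of all genes. This direction depended on the scaling between libraries. With the total count alone in place of TMM factors, a setting chosen after seeing the data, 22 members were lower and 27 higher and the median was 0.01. With limma on the authors' RPKM, 20 were lower and 26 higher and the median was again 0.01. Under those settings the median of all genes was 0.119 and 0.059, so the members' median lay 0.11 and 0.05 below it. Of all calls against control, 48.1% were higher with TMM factors, 59.7% with the total count alone and 59.3% with limma. In shRRM2/shp16 against shRRM2 these shares were 52.3%, 59.6% and 59.4%. The TMM factors were 0.961 to 0.972 in control, 0.992 to 1.001 in shRRM2 and 1.037 to 1.040 in shRRM2/shp16.

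**Figure D1:**
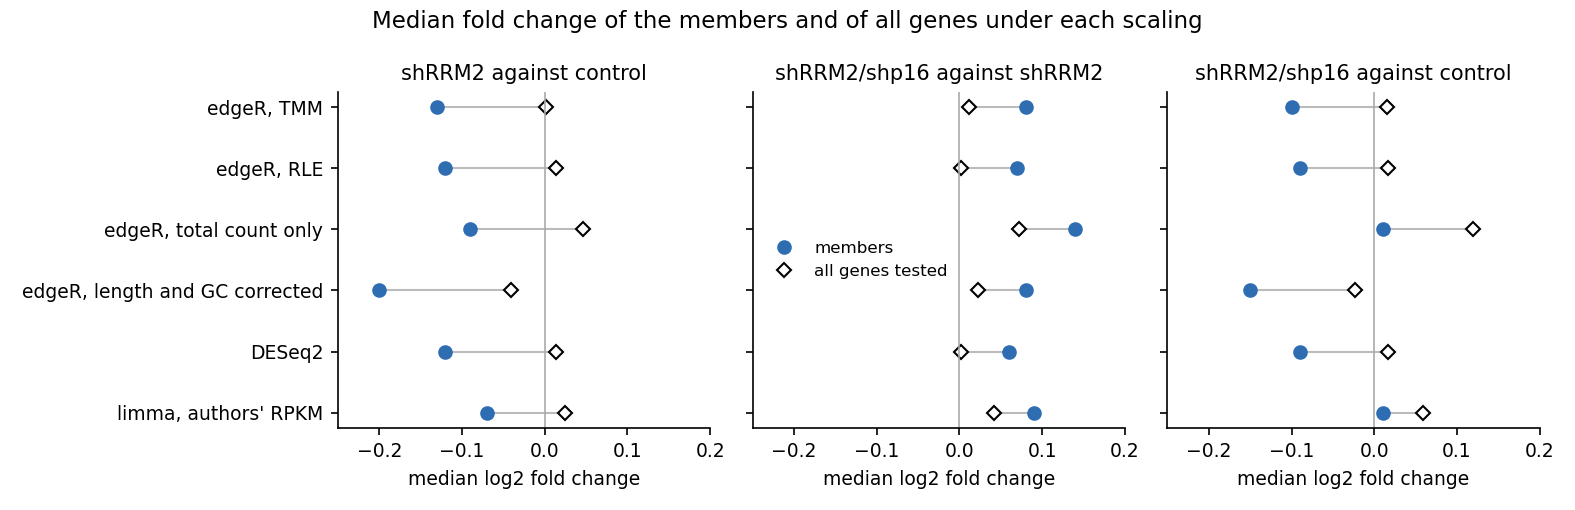
Median log2 fold change (horizontal axis) of the 87 tested members (filled circles) and of all genes tested (open diamonds) in each comparison, under 6 ways of scaling and testing (vertical axis). The members' median was negative in shRRM2 against control and positive in shRRM2/shp16 against shRRM2 in each of the 6 ways, while against control the shRRM2/shp16 median was -0.10 with TMM factors and 0.01 with the total count alone or limma, below the median of all genes in each.

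The summed CPM of the 76 tested subunits was 5514, 5416 and 5509 in control libraries a, b and c, 4867, 5032 and 4835 in shRRM2, and 5216, 5186 and 5165 in shRRM2/shp16. All 3 shRRM2 libraries were below the other 6, and the shRRM2/shp16 libraries lay between the other groups on this scale. The means were 5480 ± 55.7, 4911 ± 106 and 5189 ± 25.5 CPM, so shRRM2 stood at 89.6% and shRRM2/shp16 at 94.7% of control. As a plain share of gene-assigned reads, the subunits made up 0.526% to 0.532% in control, 0.479% to 0.5% in shRRM2 and 0.536% to 0.54% in shRRM2/shp16. On that scale shRRM2 was again lowest, but shRRM2/shp16 was above control.

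By complex, the summed level in shRRM2 was 92.2% of control for complex I, 89.9% for complex II, 87.5% for complex III, 90.6% for complex IV and 87.3% for complex V, and for each complex the 3 shRRM2 libraries lay below the 3 control libraries. In shRRM2/shp16 the sums stood at 94.6%, 90%, 102%, 100% and 90.4% of control in the same order. Complex III was at 615 ± 9.93 CPM, beside 602 ± 23.1 in control, and complex IV at 948 ± 10.1, beside 948 ± 12.5, so both overlapped control and lay above all shRRM2 libraries. Complex I, at 1684 ± 19 CPM beside 1643 ± 30.9 in shRRM2, and complex II, at 221 ± 3.3 beside 221 ± 5.84, overlapped shRRM2. Both lay below all control libraries, at 1781 ± 29.2 and 245 ± 3.94. Of the complex I genes, NDUFA4L2 was at 30.1 ± 2.85 CPM in shRRM2 and 69.1 ± 1.3 in shRRM2/shp16. That rise was nearly as large as the rise of the complex I sum. Complex V, at 1722 ± 21.4 CPM, lay above shRRM2, at 1662 ± 36.9, and below control, at 1904 ± 29.2, without overlap with either. These positions are on the TMM scale. As a plain share of reads, shRRM2/shp16 was above control for complexes III (0.0627% to 0.0646% against 0.0567% to 0.0603%) and IV (0.0974% to 0.0992% against 0.0906% to 0.0919%), overlapped it for complex I, was below it for complexes II and V, and was above shRRM2 for each. Differences between complexes were not tested.

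**Figure D2:**
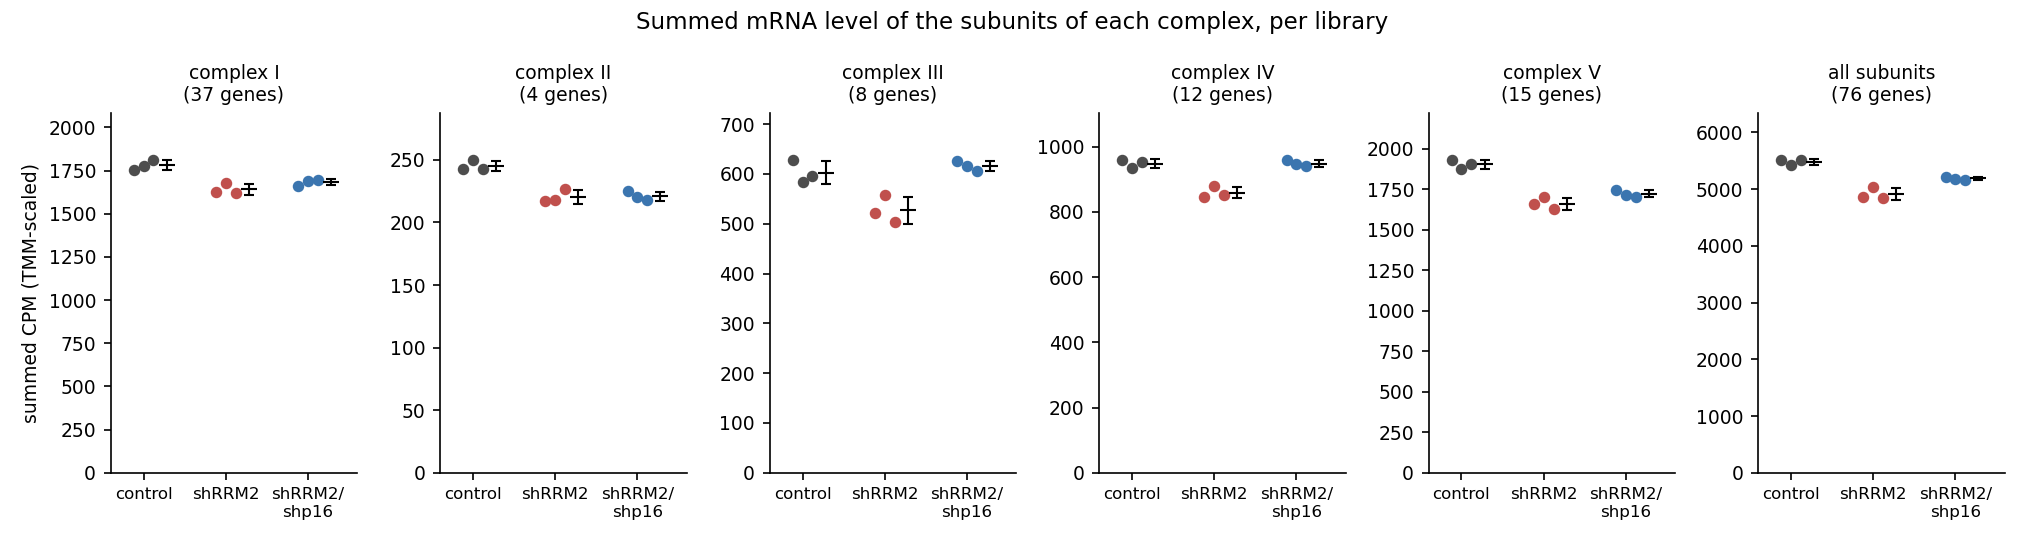
Summed TMM-scaled CPM (vertical axis, from 0) of the tested subunits of each complex and of all 76 subunits, with a point for each library and the mean ± SD of 3 libraries beside it. The shRRM2 libraries lie below control in each panel, and the shRRM2/shp16 libraries reach control in complexes III and IV. Without TMM factors the shRRM2/shp16 sum of all subunits, 0.536% to 0.54% of reads, is not below the control sum, 0.526% to 0.532%.

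Complex I had 37 tested genes. In shRRM2 16 fell and 3 rose (NDUFA7, NDUFA13 and, named after its value was seen, NDUFA1) against control, with a median of -0.11. These were 43.2% and 8.11%, beside 31.8% and 29.0% of all genes. In shRRM2/shp16 11 rose and 11 fell against shRRM2, each 29.7%, close to the 31.9% and 29.1% of all genes. The median was -0.02 (0.04 with the total count alone, 0.03 with limma and 0.01 after correction for gene length and GC content). The same shares of all genes stand beside the counts for complexes II to V below. The counts by name group follow for shRRM2/shp16 against shRRM2, and differences between groups were not tested. Of the 11 NDUFB genes, which encode accessory subunits, mainly of the membrane arm, 6 rose and 1 fell (NDUFB7), with a median of 0.18. Of the 8 NDUFS genes, which include most iron-sulfur subunits of the peripheral arm, 3 fell, with a median of -0.13. Both NDUFC genes fell, as did 2 of the 3 NDUFV genes. The NDUFA genes were split, with 3 of 13 higher and 3 lower. In shRRM2 against control, 7 NDUFB and 4 NDUFS genes fell and none of either rose.

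NDUFV1, NDUFS1 and NDUFS3 belong to the catalytic core of complex I. NDUFV1 (ENSG00000167792; GRCh38 chromosome 11, 67605653 to 67612554, plus strand) binds NADH and the flavin cofactor. It was at 69.0, 68.2 and 65.0 CPM in control libraries a to c, 54.7, 59.8 and 51.8 in shRRM2, and 48.1, 48.4 and 48.5 in shRRM2/shp16. The 3 groups did not overlap and stepped down in that order. Its log2 fold change was -0.28 ± 0.05 (SE) in shRRM2 against control, with an edgeR adjusted p of 1.6e-06. In shRRM2/shp16 it was a further -0.20 ± 0.05 against shRRM2 (edgeR adjusted p 6.2e-04). NDUFS3, a subunit of the peripheral arm, stepped down in the same way, from 42.7, 43.6 and 43.4 CPM to 33.8, 37.2 and 34.3 and then 28.8, 27.2 and 26.2. Its changes were -0.30 ± 0.05 and -0.36 ± 0.06 (edgeR adjusted p 6.9e-06 and 9.1e-07), and it was the member with the second-lowest value against control in shRRM2/shp16, at -0.66 ± 0.05 (4.0e-14). NDUFS3 overlaps PTPMT1 on its own strand and KBTBD4 and CELF1 on the other, and the strand setting of the counting was not stated. NDUFS1, the largest subunit, did not pass the test in any comparison, with 143 ± 2.31, 139 ± 3.78 and 137 ± 4.61 CPM. NDUFS1 overlaps EEF1B2, with 29495 reads, on the opposite strand.

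NDUFA4L2 (ENSG00000185633; chromosome 12, 57234903 to 57240715, minus strand), a paralog of NDUFA4 known as a hypoxia-induced gene, moved most. It was at 61.9, 58.9 and 60.9 CPM in control, 26.9, 32.4 and 30.9 in shRRM2, and 69.8, 69.9 and 67.6 in shRRM2/shp16. The shRRM2 libraries had about 49.7% of the control level, and the shRRM2/shp16 libraries lay above both other groups. The log2 fold change was -1.01 ± 0.05 in shRRM2 (edgeR adjusted p 1.8e-20), then 1.20 ± 0.05 against shRRM2 (1.4e-23) and 0.19 ± 0.05 against control (4.5e-04). All 3 calls held in every alternative run. NDUFA4 itself had levels of 113 ± 2.81, 108 ± 2.17 and 105 ± 2.49 CPM. Per length the pair was at 20.8 ± 0.409 (NDUFA4L2) and 30.6 ± 0.584 (NDUFA4) RPKM in control. NDUFA4 passed the test only in shRRM2/shp16 against control, at -0.10 ± 0.04 (edgeR adjusted p 0.0129), and this became 0.00 with the total count alone or limma. It was also lost without control replicate a (-0.08, 0.0957) or shRRM2/shp16 replicate c (-0.08, 0.116), and it was -0.21 (1.9e-06) after correction for length and GC content. NDUFA4L2 overlaps SHMT2 on the opposite strand.

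NDUFA12, an accessory subunit, was at 37.2, 36.7 and 37.5 CPM in control, 27.7, 28.1 and 27.7 in shRRM2 and 26.2, 25 and 25.3 in shRRM2/shp16. Its fall in shRRM2 was -0.41 ± 0.06 (edgeR adjusted p 1.9e-08), and it stayed below control in shRRM2/shp16, at -0.54 ± 0.06 (1.3e-11), with no overlap. NDUFA11, a membrane arm subunit, had overlapping levels in control (21.7 to 25 CPM) and shRRM2 (23.9 to 27.3) and lower ones in shRRM2/shp16 (15.9 to 19). Its change was -0.54 ± 0.07 against shRRM2 (edgeR adjusted p 3.6e-08). NDUFB7, the NDUFB gene that moved against its group, was at 31.9 ± 2.14 CPM in shRRM2 and 28.2 ± 0.966 in shRRM2/shp16, a change of -0.18 ± 0.06 (edgeR adjusted p 0.0116). That call was lost without shRRM2 replicate b (-0.13, 0.12) or shRRM2/shp16 replicate a (-0.15, 0.062), with the total count alone (-0.12, 0.0919) and with limma (-0.13, 0.127).

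NDUFA13, known also as GRIM-19, was one of 3 complex I genes that rose in shRRM2. It was at 27.3, 31.1 and 32.0 CPM in control, 34.3, 37.0 and 36.4 in shRRM2 and 33.6, 36.5 and 40.0 in shRRM2/shp16. Both hairpin groups lay above control, by 0.27 ± 0.06 and 0.29 ± 0.06 (edgeR adjusted p 4.0e-04 and 6.6e-05). NDUFA7 was at the low end, with 15 to 41 reads per library. It had 1.08 ± 0.204 CPM in control, 2.00 ± 0.38 in shRRM2 and 1.57 ± 0.247 in shRRM2/shp16. Its rise of 0.85 ± 0.25 in shRRM2 (edgeR adjusted p 0.00278) was 0.55 with limma, where 1 RPKM was added before the log. NDUFA7 overlaps RPS28, a highly counted gene with 39236 reads, on the opposite strand, and NDUFA13 overlaps YJEFN3 on its own.

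NDUFV2, a core iron-sulfur subunit, rose in shRRM2/shp16 by the reads assigned to it. It was at 3.10, 3.41 and 4.77 CPM in control, 4.44, 3.52 and 4.30 in shRRM2 and 6.44, 6.97 and 7.90 in shRRM2/shp16, from 61 to 147 reads in each library. The shRRM2/shp16 libraries lay above the other 6, which overlapped each other. Its changes were 0.80 ± 0.14 against shRRM2 and 0.94 ± 0.14 against control (edgeR adjusted p 5.4e-06 and 1.6e-07). The authors' deposited table gives 0.40 against shRRM2 (q 0.0343). Per length NDUFV2 was at 1.34 ± 0.317 RPKM in control, beside 15.7 ± 0.479 for NDUFV1. Reads with several alignments went to no gene, and how many of them came from NDUFV2 is not known. The partly overlapping antisense gene NDUFV2-AS1 had 9 to 23 reads per library and 0.523 ± 0.099, 0.877 ± 0.225 and 0.914 ± 0.205 CPM. It passed the test only in shRRM2/shp16 against control (0.83 ± 0.34, edgeR adjusted p 0.032), and lost it without control replicate a (0.67, 0.148), control replicate c (0.85, 0.0599) or shRRM2/shp16 replicate b (0.64, 0.174), with no count filter (0.81, 0.0677) and with DESeq2 (0.83, 0.105). The strand setting of the counting is not known, so reads in the stretch that NDUFV2 and NDUFV2-AS1 share cannot be told apart. NDUFV2-AS1 also overlaps ANKRD12, which had 12444 reads, on the opposite strand.

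**Figure D3:**
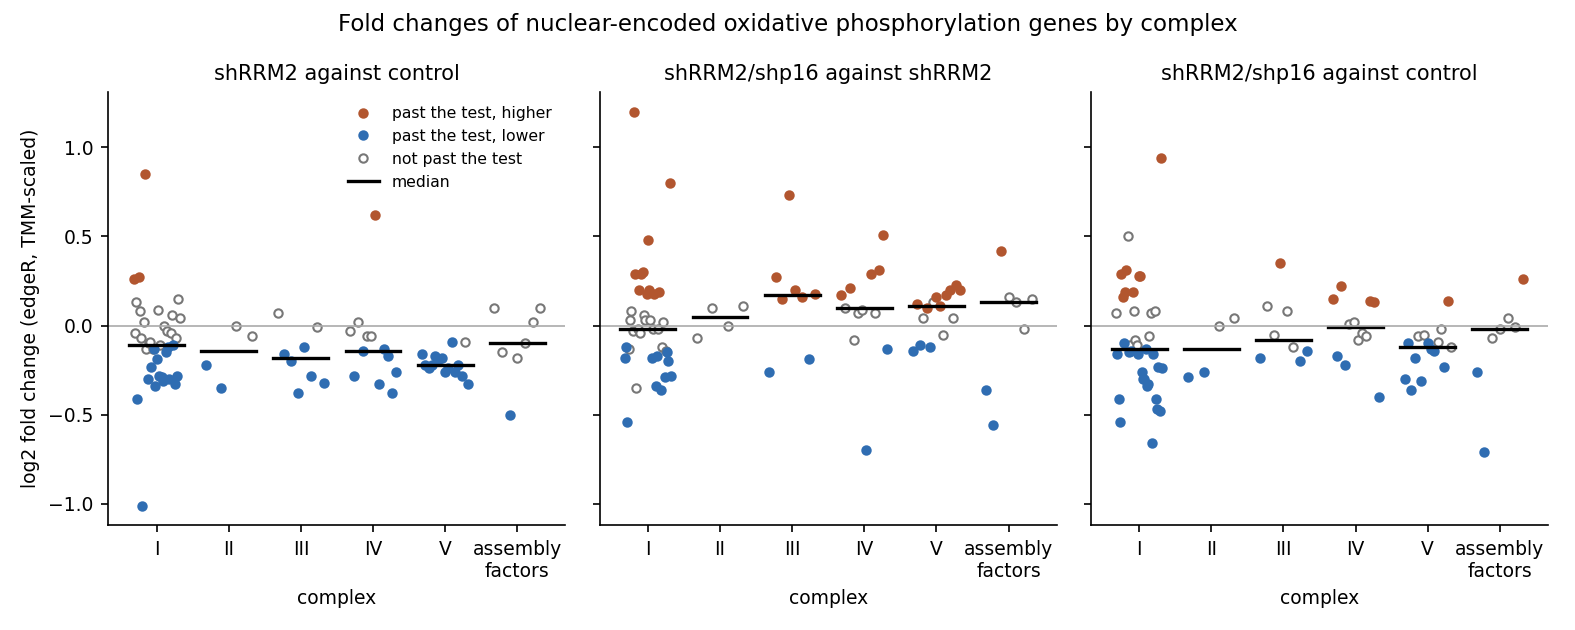
Log2 fold change (vertical axis) of each tested subunit and NDUFAF assembly factor by complex (horizontal axis) in the 3 comparisons, with filled points for genes past the test and bars for medians. Complex V lies below 0 throughout in shRRM2 against control (14 of 15 past the test), complexes III to V lie mostly above 0 in shRRM2/shp16 against shRRM2, and in shRRM2/shp16 against control the medians of complexes III and IV, -0.08 and -0.01, become 0.02 and 0.09 with the total count alone.

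Complex II, succinate dehydrogenase, joins the citric acid cycle to the chain. SDHA and SDHB form its catalytic part, and SDHC and SDHD anchor it in the membrane. SDHA was at 92.3, 95.4 and 94.0 CPM in control, 76.7, 78.6 and 85.8 in shRRM2 and 76.7, 77.7 and 75.3 in shRRM2/shp16. SDHB was at 48.0, 47.5 and 47.1, then 35.8, 38.9 and 36.9, then 41.6, 40.0 and 37.7 CPM. For both genes control lay above all other libraries and the hairpin groups overlapped. SDHA changed by -0.22 ± 0.04 in shRRM2 and -0.29 ± 0.04 in shRRM2/shp16 against control (edgeR adjusted p 1.1e-05 and 3.7e-08). SDHB changed by -0.35 ± 0.05 and -0.26 ± 0.05 (1.2e-07 and 1.9e-05). With the total count alone the shRRM2/shp16 values were -0.19 for SDHA and -0.15 for SDHB, both past the threshold. No complex II gene passed the test in shRRM2/shp16 against shRRM2, although 2 of 4 were higher with the total count alone or after correction for length and GC content, and 1 with limma. In the edgeR test with TMM factors SDHC and SDHD passed in no comparison. SDHC had 81.4 ± 0.784, 81.6 ± 1.41 and 81.3 ± 1.57 CPM.

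In complex III, 6 of 8 subunits fell in shRRM2 (median -0.18), and 6 rose and 2 fell in shRRM2/shp16 against shRRM2 (median 0.17). UQCRC1 (ENSG00000010256; chromosome 3, 48599002 to 48610976, minus strand), a core protein of the complex whose promoter is printed above, moved most. It was at 135, 117 and 128 CPM in control, 94.1, 106 and 92.2 in shRRM2, and 165, 163 and 157 in shRRM2/shp16. The 3 groups did not overlap, with shRRM2 lowest and shRRM2/shp16 highest. It fell by 0.38 on the log2 scale in shRRM2 (SE 0.04, edgeR adjusted p 5.2e-10), and rose by 0.73 ± 0.04 from there (6.0e-19), to 127% of control. Its rise of 0.35 ± 0.04 against control (8.7e-10) was the single one in the complex, where 3 members were lower and the median was -0.08 (0.02 with the total count alone or limma). UQCRFS1, the Rieske iron-sulfur protein, was at 47.7, 49.1 and 45.7 CPM in control, 38.0, 43.1 and 36.4 in shRRM2 and 43.4, 45.1 and 43.1 in shRRM2/shp16. Its changes were -0.28 ± 0.05 and then 0.16 ± 0.06 (edgeR adjusted p 2.4e-05 and 0.00969). The rise was lost without shRRM2 replicate c (0.11, 0.108), and the groups of that comparison touched at 43.1 CPM.

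Complex IV, cytochrome c oxidase, has subunits that come as isoforms. Of 12 tested, 7 fell and 1 rose in shRRM2 (median -0.14), and 5 rose and 2 fell in shRRM2/shp16 against shRRM2 (median 0.10). Against control, 4 were higher in shRRM2/shp16 and 3 were lower (33.3% and 25%, beside 30.0% and 32.4% of all genes). The median of -0.01 became 0.09 with the total count alone or limma. The gene that rose in shRRM2 was COX7A1 (ENSG00000161281; chromosome 19, 36150922 to 36152869, minus strand), known as the isoform of heart and skeletal muscle. It was at 10.0, 9.28 and 9.47 CPM in control, 13.2, 17.5 and 13.7 in shRRM2, and 8.40, 9.66 and 9.24 in shRRM2/shp16. The shRRM2 libraries lay above the other 6. COX7A1 rose by 0.62 ± 0.10 in shRRM2 (edgeR adjusted p 4.8e-07), and the change from there in shRRM2/shp16 was -0.70 ± 0.10 (4.6e-08). It did not pass the test in shRRM2/shp16 against control. Of the 5 muscle markers, 2 were tested. In shRRM2 against control 1 of them was higher (0.84) and 1 lower (-0.79), and both were lower in shRRM2/shp16 than in shRRM2 (-2.60 and -2.55). Their part in the COX7A1 values was not tested.

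COX7A2, the isoform found in most tissues, moved the other way. It was at 85.0, 76.1 and 76.9 CPM in control, 62.8, 65.5 and 61.5 in shRRM2 and 82.7, 78.8 and 71.2 in shRRM2/shp16. The shRRM2 libraries lay below the other 6, by -0.33 ± 0.05 against control, and the change to shRRM2/shp16 was 0.29 ± 0.05 (edgeR adjusted p 1.5e-07 and 1.6e-06). Per length, COX7A2 was at 39.8 ± 2.26 RPKM in control and COX7A1 at 9.20 ± 0.314. COX7A2L, a factor of supercomplex assembly, was at 10.3 ± 0.192 RPKM. COX7A2L changed by -0.13 ± 0.05 in shRRM2 (edgeR adjusted p 0.0133), which was lost without shRRM2 replicate a (-0.11, 0.0742) or c (-0.11, 0.0646), with the total count alone (-0.09, 0.1), with a stricter count filter (-0.10, 0.053), with DESeq2 (-0.12, 0.0586) and with limma (-0.07, 0.22).

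**Figure D4:**
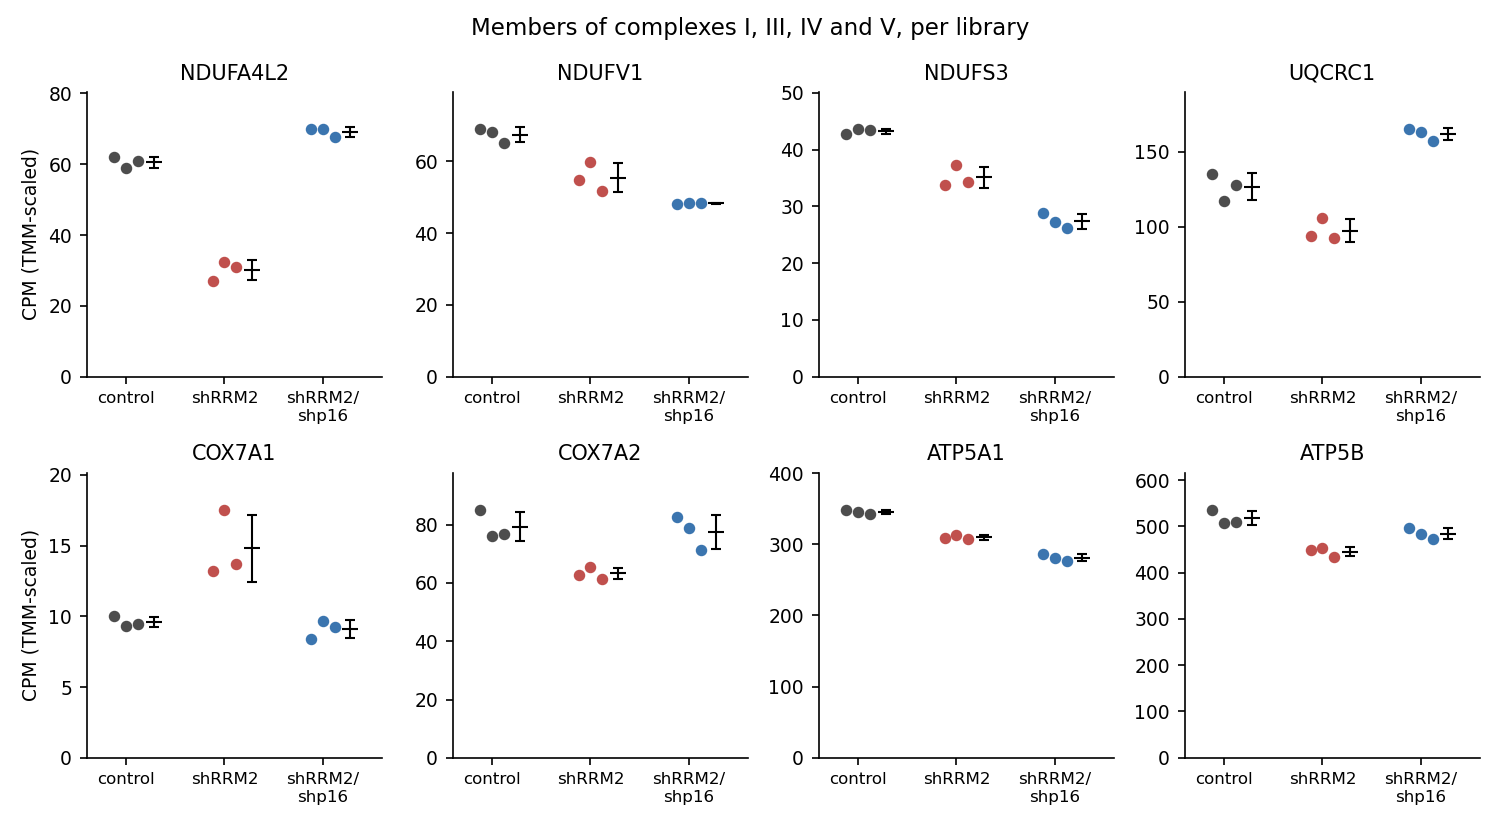
TMM-scaled CPM (vertical axes, each from 0) of 8 members in every library, with the mean ± SD of 3 libraries beside the points. NDUFA4L2, UQCRC1 and COX7A2 are lowest in shRRM2, COX7A1 is highest there, NDUFV1, NDUFS3 and ATP5A1 step down from control to shRRM2 to shRRM2/shp16, and ATP5B lies in shRRM2/shp16 between its other groups (its difference from control, -0.10, becomes 0.01 with the total count alone or limma).

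Of the other complex IV isoform families, COX6B was carried by COX6B1, at 112 ± 3.92 RPKM in control against 0.0444 ± 0.0298 for COX6B2, known from testis. COX6B1 did not pass the test in any comparison (108 ± 3.18, 104 ± 2.5 and 109 ± 1.74 CPM). For COX4, COX6A, COX7B and COX8 only COX4I1, COX6A1, COX7B and COX8A had reads. The COX4I1 gene overlaps EMC8 on the opposite strand. COX4I1 overlapped between control (190 to 193 CPM) and shRRM2 (183 to 191) and was above both in shRRM2/shp16 (209 to 214), by 0.17 ± 0.03 and 0.15 ± 0.03 against shRRM2 and control (edgeR adjusted p 5.2e-06 and 5.5e-05). COX5B, a nuclear-encoded subunit that binds zinc, showed the same order, with 69.3 ± 2.13, 70.0 ± 2.35 and 80.8 ± 2.3 CPM and rises of 0.21 ± 0.04 and 0.22 ± 0.04 (edgeR adjusted p 4.3e-05 and 1.0e-05). COX5A did not follow it. COX5A was at 60.5, 60.5 and 62.0 CPM in control, 48.9, 53.3 and 48.5 in shRRM2 and 52.0, 55.6 and 54.6 in shRRM2/shp16, and its fall in shRRM2 was -0.28 ± 0.05 (edgeR adjusted p 2.1e-06). Against control it was at -0.17 ± 0.05 in shRRM2/shp16 (0.00101), which was lost with the total count alone (-0.07, 0.186) and with limma (-0.07, 0.117).

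COX7B was at 54.3 ± 3.36, 48.0 ± 1.69 and 59.4 ± 0.292 CPM in control, shRRM2 and shRRM2/shp16, without overlap between groups. It changed by -0.17 ± 0.05 in shRRM2 and by 0.31 ± 0.05 from there (edgeR adjusted p 0.00209 and 4.2e-07). Its difference of 0.14 ± 0.05 from control (0.0108) was lost without control replicate a (0.11, 0.0615), with no count filter (0.11, 0.0648) and after correction for gene length and GC content (0.07, 0.151). COX6A1 was at 67.4 ± 6.03, 61.2 ± 2.7 and 58.0 ± 1.13 CPM. Its fall of -0.14 ± 0.05 in shRRM2 (edgeR adjusted p 0.0116) was lost without control replicate a (-0.06, 0.319) or shRRM2 replicate a (-0.11, 0.0941), with the total count alone (-0.10, 0.077), with DESeq2 (-0.13, 0.0636) and with limma (-0.09, 0.251), while after correction for length and GC content it was -0.32 (9.0e-07). Against control it was lower in shRRM2/shp16, at -0.22 ± 0.05 (edgeR adjusted p 1.2e-04; limma -0.11, 0.126), and at -0.13 without control replicate a, -0.12 with the total count alone and -0.40 after the same correction. COX8A was at 124, 98.9 and 106 CPM in control, 86.4, 99.0 and 90.5 in shRRM2 and 91.7, 84.1 and 75.6 in shRRM2/shp16. Control replicate a stood highest, and shRRM2 overlapped both other groups. Its change in shRRM2 was -0.26 ± 0.06 (edgeR adjusted p 1.1e-04), -0.15 without control replicate a, and past the threshold neither in DESeq2 (-0.24, 0.0623) nor in limma (-0.19, 0.149). Its further change of -0.13 ± 0.06 in shRRM2/shp16 (0.0435) was lost without shRRM2 replicate b (-0.08, 0.309) or c (-0.15, 0.0567) and without shRRM2/shp16 replicate b (-0.13, 0.0948) or c (-0.06, 0.402), and was -0.20 without shRRM2/shp16 replicate a. DESeq2 (-0.14, 0.299), limma (-0.09, 0.494), the total count alone (-0.07, 0.273) and the correction for length and GC content (-0.09, 0.165) did not call it either.

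Nearly all of complex V fell in shRRM2. There, 14 of 15 subunits fell and none rose, with log2 fold changes of -0.33 to -0.09 and a median of -0.22. Over the 10 alternatives other than leaving out a replicate, 11 to 15 fell and 0 rose. In shRRM2/shp16 against shRRM2, 8 rose and 3 fell, with a median of 0.11. The 3 that fell there were ATP5A1, ATP5C1 and ATP5F1, the last 2 named after their values were seen. ATP5A1 and ATP5B encode the alpha and beta subunits of the catalytic head, which are present in equal number, and ATP5C1 encodes its gamma subunit. ATP5A1 (ENSG00000152234; chromosome 18, 46080248 to 46104334, minus strand) was at 348, 346 and 342 CPM in control, 309, 313 and 307 in shRRM2 and 286, 281 and 276 in shRRM2/shp16. ATP5B (ENSG00000110955; chromosome 12, 56638175 to 56646068, minus strand) was at 535, 508 and 509, then 448, 454 and 434, then 497, 484 and 472 CPM. The groups did not overlap for either gene, but ATP5A1 was lowest in shRRM2/shp16 and ATP5B in shRRM2. The ATP5A1 gene overlaps HAUS1 on the opposite strand.

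In shRRM2, ATP5A1 changed by -0.16 ± 0.03 and ATP5B by -0.22 ± 0.03 (edgeR adjusted p 4.3e-06 and 8.8e-09). From there ATP5A1 changed by -0.14 ± 0.03 and ATP5B by 0.12 ± 0.03 (3.0e-05 and 2.8e-04). Against control, shRRM2/shp16 had ATP5A1 at -0.30 ± 0.03 (8.3e-13) and ATP5B at -0.10 ± 0.03 (0.00269). The second ATP5A1 change was -0.08 with the total count alone and -0.09 with limma or the correction for length and GC content, each still past the threshold. The ATP5B difference became 0.01 with the total count alone or limma, and it was lost without shRRM2/shp16 replicate c (-0.07, 0.0596). Without control replicate a it was -0.06 (0.0467). ATP5L, the g subunit of the membrane part, was the single complex V gene higher in shRRM2/shp16 than in control, at 127 ± 0.707 against 115 ± 4.62 CPM (0.14 ± 0.04, edgeR adjusted p 0.001), while after correction for length and GC content it was at -0.06. ATP5L was at 108 ± 5.72 CPM in shRRM2, and 0.23 ± 0.04 higher in shRRM2/shp16 than there (1.7e-06).

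ATP5G1, ATP5G2 and ATP5G3 encode the same mature c subunit of the proton-carrying ring. Per length in control, ATP5G2 was highest at 25.8 ± 0.315 RPKM, followed by ATP5G3 at 14.6 ± 0.588 and ATP5G1 at 11.7 ± 0.0968. Each was apart beyond the spread between libraries. This order rests on the lengths behind the authors' RPKM (3991, 6780 and 2615 bases), whose error the SD does not hold. In CPM, control ATP5G2 (105 to 108) and ATP5G3 (97.7 to 106) overlapped. All 3 fell in shRRM2. ATP5G2 went from 107 ± 1.9 to 89.2 ± 7.27 CPM (-0.26 ± 0.04, edgeR adjusted p 1.1e-06), ATP5G3 from 103 ± 4.51 to 86.9 ± 5.07 (-0.24 ± 0.04, 3.8e-06) and ATP5G1 from 31.6 ± 0.306 to 27.9 ± 2.4 (-0.18 ± 0.06, 0.0116). The ATP5G1 fall was lost without shRRM2 replicate c (-0.11, 0.138), with the total count alone (-0.13, 0.0586), with DESeq2 (-0.17, 0.0534) and with limma (-0.07, 0.218). In shRRM2/shp16, ATP5G2 was at 99.6 ± 2.15 and ATP5G3 at 93.7 ± 3.18 CPM, both above shRRM2 by 0.16 ± 0.04 and 0.11 ± 0.04 (edgeR adjusted p 0.00141 and 0.0272). The ATP5G3 rise was lost without shRRM2 replicate a (0.07, 0.176) or c (0.10, 0.0857) or shRRM2/shp16 replicate c (0.09, 0.122) and with DESeq2 (0.10, 0.088). ATP5G1, at 30.5 ± 1.28 CPM, did not pass the test there. Against control, ATP5G2 was at -0.10 ± 0.04 and ATP5G3 at -0.13 ± 0.04 (edgeR adjusted p 0.0299 and 0.00452), which became 0.00 and -0.03 with the total count alone or limma. The ATP5G2 difference was also lost without control replicate a (-0.08, 0.101) or c (-0.11, 0.0529) or shRRM2/shp16 replicate b (-0.09, 0.112) or c (-0.08, 0.145), with a stricter count filter (-0.08, 0.0798) and with DESeq2 (-0.10, 0.0782), and the ATP5G3 difference without shRRM2/shp16 replicate b (-0.10, 0.0659).

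The NDUFAF genes build complex I and are not part of it. Of 7, 1 fell in shRRM2 (NDUFAF3), and 1 rose (NDUFAF3) and 2 fell (NDUFAF2 and, named after its value was seen, NDUFAF1) in shRRM2/shp16 against shRRM2. NDUFAF3 was at 41.8, 37.1 and 39.6 CPM in control, 28.7, 29 and 26.6 in shRRM2 and 38.7, 38.7 and 35.5 in shRRM2/shp16. The shRRM2 libraries lay below the other 6, which overlapped. Its changes were -0.50 ± 0.06 and then 0.42 ± 0.06 (edgeR adjusted p 1.1e-09 and 4.6e-08), and it overlaps DALRD3 on the opposite strand. NDUFAF2 was at 12.0, 15.7 and 15.7 CPM in control, 12, 11.5 and 15 in shRRM2 and 8.13, 9.91 and 8.01 in shRRM2/shp16. The last group lay below the other 6, which overlapped. Its change against shRRM2 was -0.56 ± 0.11 (edgeR adjusted p 3.0e-05; -0.35 with limma), and -0.71 ± 0.11 against control (1.7e-07), the lowest value of any member in that comparison. NDUFAF7 was the single one higher than control, at 14.5 ± 0.569 CPM in shRRM2/shp16 against 12.2 ± 1.02 (0.26 ± 0.08, edgeR adjusted p 0.00723), which was lost without control replicate a (0.19, 0.08). NDUFAF7 overlaps CEBPZ and PRKD3, with 9115 and 10570 reads, on the opposite strand.

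The authors' deposited table holds a test that they ran between the hairpin groups. It marks 21 members as significant, 15 higher and 6 lower, and marks 28.5% of the genes tested here. Of the 21, 20 were also called from the counts in the same direction, out of 52 members so called. The largest log2 fold change of a member in the authors' deposited table was 1.21 for NDUFA4L2, with a q of 4.4e-04. UQCRC1 stood at 0.56 and NDUFAF2 at -0.58 in the authors' deposited table, with the same q. Several members called from the counts were not marked by the authors' deposited test, though the sign was the same. Among them were COX7A1 (-0.42, q 0.213), NDUFV1 (-0.19, q 0.112) and NDUFS3 (-0.26, q 0.686). NDUFAF3 (0.35, q 0.425), ATP5A1 (-0.12, q 0.488) and ATP5B (0.20, q 0.112) were not marked either.

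Other genes of the respiratory system were read from lists. Beside the counts of these and the further lists below, 31.8% of all genes fell and 29.0% rose in shRRM2. From there 31.9% of all genes rose and 29.1% fell in shRRM2/shp16. Against control 32.4% were lower and 30.0% higher in shRRM2/shp16. Of 41 further assembly factors, 20 fell and 2 rose in shRRM2 (median -0.17), and 19 rose and 2 fell in shRRM2/shp16 against shRRM2 (median 0.15). Of 76 mitochondrial ribosomal protein genes, whose products translate the subunits encoded in mitochondrial DNA, 58 fell and 1 rose in shRRM2 (median -0.31), and 33 rose and 4 fell from there (median 0.13). Against control they had 38 lower and 5 higher in shRRM2/shp16, with a median of -0.14 (-0.03 with the total count alone). Of 17 citric acid cycle and pyruvate dehydrogenase genes, 11 fell and 1 rose in shRRM2 (median -0.18). From there 9 fell and 3 rose in shRRM2/shp16 (median -0.16), and 14 were lower and 1 higher than in control (median -0.31; -0.21 with the total count alone). Of 19 tested import genes, 12 fell and 0 rose in shRRM2 (median -0.21). From there 6 rose (31.6%, near the share of all genes) and 4 fell (21.1%), with a median of -0.05 (0.01 with the total count alone and 0.05 with limma).

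Of 5 further genes of oxidative phosphorylation outside the name rule, 4 fell in shRRM2 and 0 rose. The 5 were CYC1, CYCS, USMG5, C14orf2 and ATPIF1, of which ATPIF1 did not pass the test there. CYC1, the cytochrome c1 of complex III, was at 60.6, 55.2 and 58.3 CPM in control, 44.4, 48.6 and 43.8 in shRRM2 and 45.0, 42.8 and 44.7 in shRRM2/shp16. CYCS, cytochrome c itself, was at 104, 115 and 113, then 93.1, 88.1 and 92.6, then 84.2, 83.5 and 86.5 CPM. For both genes control lay above all other libraries. Against control, CYC1 changed by -0.35 ± 0.05 in shRRM2 and -0.40 ± 0.05 in shRRM2/shp16 (edgeR adjusted p 6.4e-08 and 1.9e-09), and CYCS by -0.27 ± 0.04 and -0.38 ± 0.04 (1.7e-07 and 3.6e-11). In shRRM2/shp16 against shRRM2, where UQCRC1 rose, CYC1 did not pass the test.

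Of 19 listed regulators of mitochondrial biogenesis, 11 fell and 1 rose in shRRM2 (median -0.28), and 12 rose and 3 fell in shRRM2/shp16 against shRRM2 (median 0.28). PPARGC1A, the coactivator that drives many of these genes in muscle and brown fat, was at 2.01, 3.24 and 2.74 CPM in control, 2.16, 1.79 and 2.01 in shRRM2 and 19.5, 18.0 and 18.1 in shRRM2/shp16. Control and shRRM2 overlapped and shRRM2/shp16 stood far above both. Its log2 fold change was 3.22 ± 0.13 against shRRM2 and 2.83 ± 0.12 against control (edgeR adjusted p 5.3e-25 and 1.4e-24), or 9.33-fold and 7.1-fold. With limma, where 1 RPKM was added before the log, they were 1.23 and 1.16. TFAM, which packs and transcribes mitochondrial DNA, was at 29.3, 32.2 and 33.3 CPM in control, 20.1, 18.7 and 19.2 in shRRM2 and 30.4, 33.5 and 35.0 in shRRM2/shp16. The shRRM2 libraries were lowest and the other groups overlapped. TFAM changed by -0.70 ± 0.07 and then 0.77 ± 0.07 (edgeR adjusted p 4.4e-12 and 2.0e-13).

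NRF1 was at 21.0 ± 1.04 CPM in control, 13.8 ± 0.785 in shRRM2 and 17.2 ± 1.67 in shRRM2/shp16, with no overlap between groups. It changed by -0.61 ± 0.08 in shRRM2 and 0.31 ± 0.08 from there (edgeR adjusted p 1.0e-08 and 0.00109). ESRRA was at 17.6 ± 1.32, 14.7 ± 1.46 and 23.5 ± 0.968 CPM. Its rise in shRRM2/shp16 was 0.68 ± 0.08 against shRRM2 and 0.42 ± 0.07 against control (edgeR adjusted p 3.0e-10 and 3.1e-06). The ESRRA fall in shRRM2 (-0.26 ± 0.08, 0.00508) was lost without shRRM2 replicate c (-0.17, 0.0836), after correction for length and GC content (-0.16, 0.0693) and with limma (-0.11, 0.132). GABPA, the DNA-binding part of the ETS factor, was at 24.9 ± 2.15, 23.3 ± 1.18 and 30.1 ± 1.44 CPM, with a rise of 0.37 ± 0.07 in shRRM2/shp16 against shRRM2 (edgeR adjusted p 6.0e-06). The 9.33-fold higher PPARGC1A in shRRM2/shp16 stood beside a median change of 5.36% over the members. Whether these regulators bear on the members' levels was not tested.

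**Figure D5:**
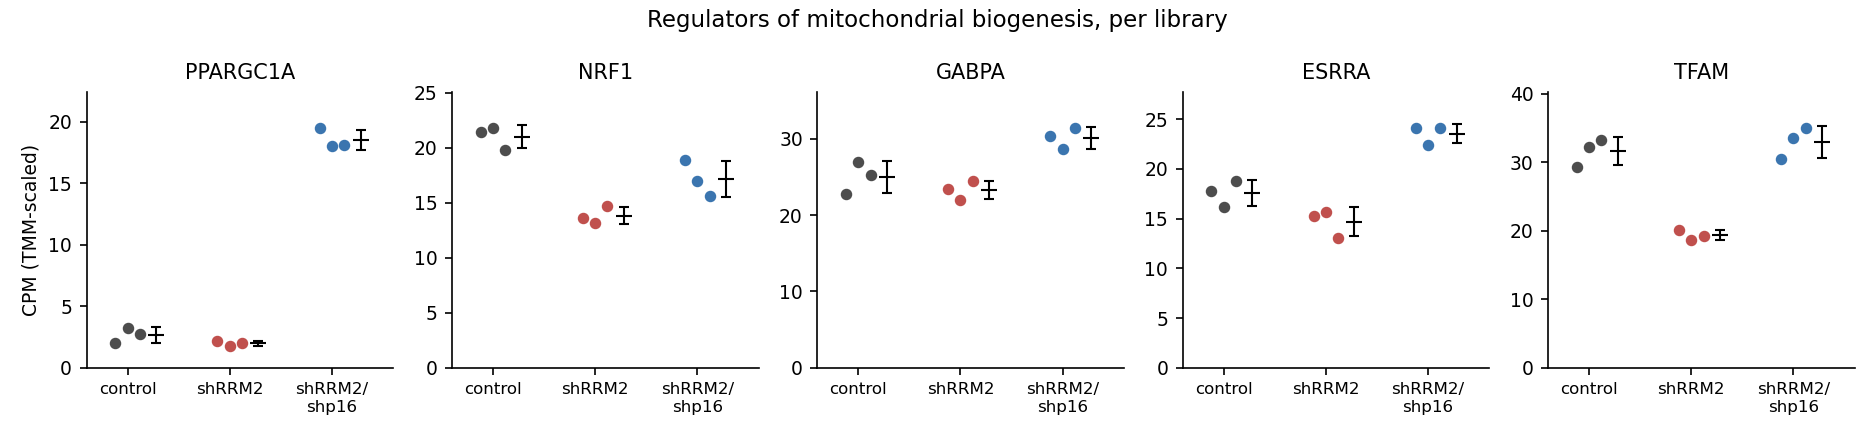
TMM-scaled CPM (vertical axes, each from 0) of 5 regulators in every library, with the mean ± SD of 3 libraries beside the points. NRF1 and TFAM are lowest in shRRM2, and PPARGC1A, GABPA and ESRRA are highest in shRRM2/shp16, where PPARGC1A is at 18.0 to 19.5 CPM beside 1.79 to 3.24 in the other 6 libraries.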

How the data were processed

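RNA was measured by stranded, ribosomal RNA-depleted sequencing in 3 groups of 3 libraries. The authors deposited one table of raw counts for every library, by Ensembl identifier and in the layout of HTSeq. Per the submitters' processing notes, TopHat2 2.0.9, Cufflinks 2.0.2, Cuffdiff and the build GRCh38 were used, with no role given. The annotation and the strand setting of the counting are not given in the sources used here. The authors also deposited one table of log2 values, which equal log2(RPKM/1000 + 1) in 8 of the 9 columns, with their own log2 fold changes and q-values for shRRM2/shp16 against shRRM2. The log2 column of shRRM2 replicate c did not match its counts (0.687% of 9892 genes within 0.1%) and was left out of the RPKM test. The control RPKM given here come from the authors' matching columns. Lines that name no gene stayed out of library sizes, and ambiguous reads were 3.74% to 6.02% of those with a single alignment.

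The test on the counts was that of edgeR 4.0.16, run in R 4.3.3 (quasi-likelihood F-test, TMM factors, filterByExpr, all 9 libraries in one fit with 6 residual degrees of freedom), with Benjamini-Hochberg adjustment over 16561 genes, which held 99.8% of gene counts. Each library counted as 1 sample. Differences between replicates exceeded counting noise (chi-square per degree of freedom 1.44 to 2.95), and the fit put the coefficient of variation beyond that noise at 0.027. Neither value shows whether the libraries came from separate cultures. Alternatives used DESeq2 1.42.0, limma 3.58.1 on RPKM with a pseudocount of 1, other scalings and filters, a correction for gene length and GC content, and leaving out each library. The steps were tested on simulated data. Positions are those of a GENCODE annotation of GRCh38, which held all 91 members. Genes named are the catalytic core and isoform families, the 3 highest and 3 lowest called members per comparison, and lone members that moved against their complex or name group. The members, lists and tests were chosen with earlier results of these data known. Single results for some genes are not reported here.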

Additional observations from a re-analysis of the deposited data

How the results depend on the processing

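Set against control, shRRM2 kept the direction of the members' median and of every called member in each alternative run, with at least 37 of 51 calls kept. The same held for shRRM2/shp16 set against shRRM2, with at least 45 of 52 calls kept. In shRRM2/shp16 against control, at least 37 of 57 calls were kept and the direction depended on scaling. Depth limits members such as NDUFA7 (15 to 41 reads per library) and NDUFV2-AS1 (9 to 23). The causes of the changes below were not tested.

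With the total count alone, chosen after seeing the data, shRRM2 against control had 10 members higher and a median of -0.09, shRRM2/shp16 against shRRM2 had 13 lower and a median of 0.14, and shRRM2/shp16 against control had 27 higher, 22 lower and a median of 0.01. With limma on RPKM the median in shRRM2 was -0.07, and shRRM2/shp16 against control had 26 higher, 20 lower and a median of 0.01. With no count filter the medians against control were -0.18 in shRRM2 and -0.12 in shRRM2/shp16. With at least 10 counts in every library, 7 members were higher in shRRM2 and the median was -0.11. With the correction for length and GC content the medians against control were -0.20 and -0.15, with 10 members higher in shRRM2/shp16, and with the replicate block added they were -0.21 and -0.15, again with 10 higher.

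No pairing by replicate letter was seen, since the deviations of same-letter libraries correlated at -0.02 to 0.049 and those of different-letter libraries at -0.048 to 0.036. This does not settle whether the letters pair libraries by design. The replicate block alone gave 4 members higher and 49 lower in shRRM2, 32 and 20 in shRRM2/shp16 against shRRM2, and 17 and 43 against control, with medians of -0.14, 0.07 and -0.10. Leaving out 1 library gave 4 to 5 higher and 40 to 48 lower in shRRM2 (median -0.16 to -0.11), 28 to 36 higher and 17 to 18 lower in shRRM2/shp16 against shRRM2 (0.05 to 0.10), and 13 to 18 higher and 34 to 39 lower against control (-0.10 to -0.08). Of the alternative values of named calls, 8 reversed, all against control in shRRM2/shp16: ATP5B to 0.01, ATP5G2 to 0.00 and NDUFA4 to 0.00, each with the total count alone and with limma, and ATP5L to -0.06 with the length and GC correction, with and without the replicate block. A further 67 lost the threshold and 1076 did neither, of which 44 moved by over 1.5 times (25 smaller and 19 larger, 4 of them with a library left out).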
